A study of Mus musculus with 35 samples.

Results

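The genes described here are 10 that are commonly associated with the trophoblast and with simple epithelium, namely the transcription factor genes Hand1, Cdx2, Gata2, Gata3, Elf5 and Tfap2c and the keratin genes Krt7, Krt8, Krt18 and Krt19. They were chosen by symbol, with earlier results of these data known. Each of the 10 had a row in all 3 deposited RNA-seq tables, which together list 18930 genes. Counts of members set beside shares of all genes are therefore descriptions and no test of the group. The study asked what is lost when mouse embryonic stem cells (ESCs) lack TET3, an enzyme that oxidizes 5-methylcytosine in DNA. It also asked what is lost when the catalytic site of TET3 is mutated. Male V6.5 ESCs of mixed 129 and C57BL/6 background were used in 3 genotypes. Tet3 +/+ cells are wild type, Tet3 m/m cells carry substitutions in the iron-binding site of the catalytic domain, and Tet3 -/- cells lack exon 4. The study reports less Tet3 mRNA in Tet3 m/m and holds it possible that the mutant protein is reduced too.

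Cells were grown on feeders, pre-plated, and differentiated towards neuroectoderm by removing LIF and adding 1 µM retinoic acid. In the day 3 experiment, RNA was collected after 72 h from 3 Tet3 +/+, 3 Tet3 m/m and 2 Tet3 -/- samples, each from its own clone. In the Dnmt1 experiment, cells of each genotype received at the start of differentiation a vector expressing the maintenance DNA methyltransferase DNMT1, or the empty vector, and were then selected with blasticidin, with 2 samples in each of 6 groups. The labels do not say that those pairs came from separate cultures, so p-values from that experiment measure the spread between these samples, which may be technical. In the Tet3-CD experiment, cells received either a vector expressing the TET3 catalytic domain or the empty vector on day 2, with 1 sample of each genotype and vector and therefore no replicate check. The labels give this experiment the same 72 h, whereas the study's methods have its cells collected 2 days after that transfection, so its collection time is uncertain and may differ from that of the other experiments.

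Trophoblast is the outer lineage of the blastocyst and forms the placenta. Cdx2, Gata3, Tfap2c and Elf5 take part in setting up or keeping trophoblast stem cells, while Hand1 and Gata2 act in differentiating trophoblast, Hand1 in giant cells. None of these factors is restricted to trophoblast, since Hand1 also marks extraembryonic mesoderm, Cdx2 the intestinal and posterior lineages, and Gata2, Gata3 and Tfap2c parts of the surface ectoderm, while Tfap2c is also present in germ cells. Keratins build intermediate filaments from a type II and a type I chain in equal amounts. KRT8 and KRT18 are the first pair made in the embryo, in trophectoderm and other simple epithelia, and KRT7 (type II) and KRT19 (type I) join them in many of the same cells.

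The values are the authors' normalized counts, that is reads per gene divided by a size factor for each sample, and they were compared on the scale of log2(normalized count + 1). Recovered reads ranged from 31155842 to 50845950 per sample. A difference is called here when limma's adjusted p (Benjamini-Hochberg over all genes tested) was under 0.05 and the fold change over 1.5. Counts of genes at an unadjusted p under 0.05 have no share of all genes beside them and show no excess by themselves. As a check of the labels, the Tet3 row of the day 3 table read 4613, 4576 and 5020.0 for Tet3 +/+, 2666, 2277 and 1945 for Tet3 m/m and 1796 and 2329 for Tet3 -/-, and was lower in both altered genotypes than in every Tet3 +/+ sample. Reads from all of its exons are counted together, so this row does not isolate the deleted exon. With the empty vector of the Dnmt1 experiment, Tet3 averaged 3016 for Tet3 +/+, 1044 for Tet3 m/m and 2546 for Tet3 -/-. Dnmt1 was at 14678 and 15225 with the empty vector and 22799 and 23768 with the Dnmt1 vector in Tet3 +/+, 11934 and 11285 and then 20244 and 23211 for Tet3 m/m, and 17356 and 17554 and then 33380.5 and 39854 for Tet3 -/-. All 10 genes of a list for the labelled cell type, neural progenitors (Sox1 and Pax6 among them), were listed in every table.

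The keratins far outweighed the factors. Per kilobase of annotated exon in day 3 Tet3 +/+ samples, Krt18 averaged 20856 normalized counts and Krt8 18820, and their sample ranges, 16973 to 23772 for Krt18 and 14040 to 21578 for Krt8, overlapped. Krt19 followed at 5714 and Krt7 at 931 per kilobase, each with a range apart from its neighbours. Gata3 at 448, Gata2 at 446 and Tfap2c at 382 per kilobase had overlapping ranges. Hand1 at 102, Cdx2 at 34.0 and Elf5 at 6.79 per kilobase came last and did not overlap one another. The keratins took 0.166% to 0.234% of all reads in these 3 samples and the factors 0.0134% to 0.0153%.

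**Figure D1:**
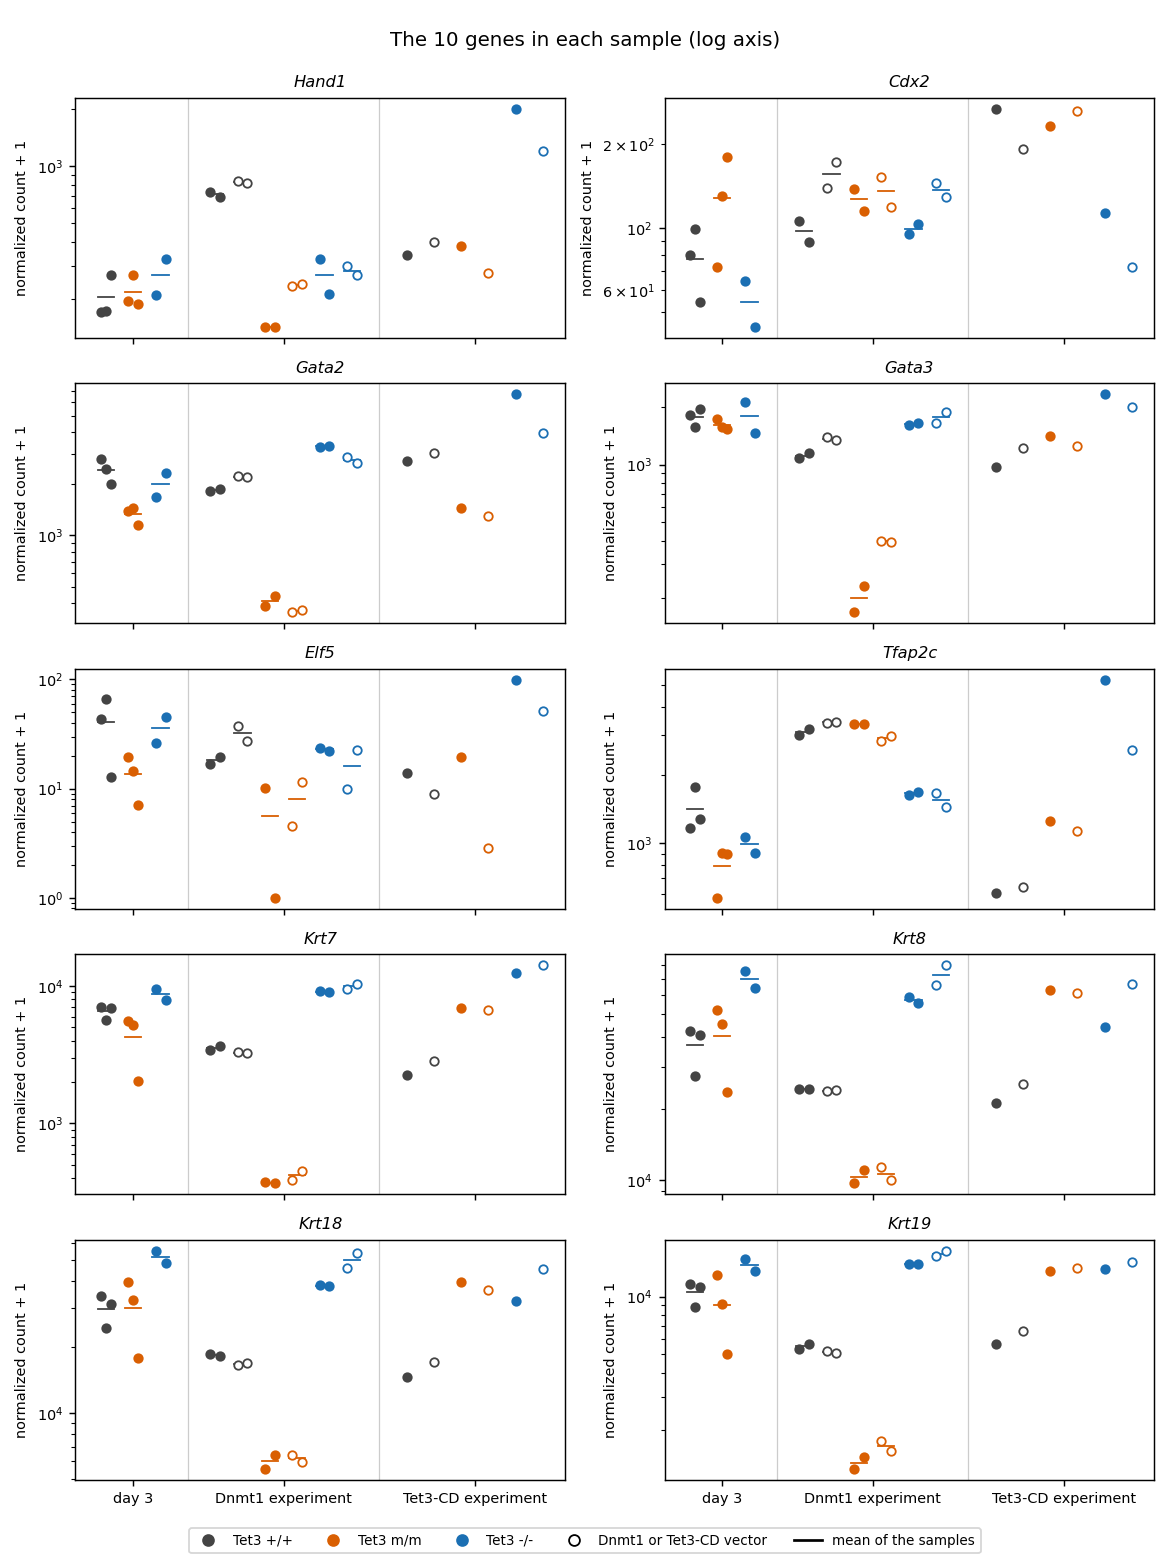
Normalized count + 1 (log axis) of each of the 10 genes in every RNA-seq sample, grouped by genotype and experiment. Points are samples, filled for day 3 or the empty vector and open for the Dnmt1 or Tet3-CD vector, and lines are means. In the Dnmt1 experiment the Tet3 m/m samples lie below Tet3 +/+ for 8 genes with the empty vector, among them Krt7 at 374 and 365 against 3410.1 and 3641.

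At day 3, 2 transcription factor genes fell in Tet3 m/m, and no member rose. Over all genes tested in that comparison, 10.2% were called in either direction and 5.19% were called lower. Gata2, which encodes a zinc-finger factor of trophoblast and blood, was at 2782, 2454 and 1991 normalized counts for Tet3 +/+ and 1382, 1437 and 1154 for Tet3 m/m. All 3 Tet3 m/m samples were below all 3 Tet3 +/+ samples. The means were 2409 ± 398 (SD, n = 3) and 1324 ± 150.0 (SD, n = 3), a log2 difference of -0.86 ± 0.16 (SE) with a limma adjusted p of 0.00551. Tfap2c, which encodes the AP-2γ factor, was at 1165, 1775 and 1281 for Tet3 +/+ and 574, 907 and 897 for Tet3 m/m, again without overlap. Its log2 difference was -0.83 ± 0.20 (SE), with a limma adjusted p of 0.0211. This call was lost when the second Tet3 +/+ sample was left out (limma adjusted p = 0.0828) or the third (0.0533).

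The other 4 factors did not pass the test in day 3 Tet3 m/m. Gata3, the GATA factor of the trophectoderm, was at 1823, 1564 and 1962 for Tet3 +/+ and 1723, 1579.9 and 1535 for Tet3 m/m, with a log2 difference whose 95% interval ran from -0.46 to 0.18. Hand1, a basic helix-loop-helix factor, was at 171, 173 and 267 for Tet3 +/+ against 195, 266 and 187 for Tet3 m/m, and the groups overlapped. Cdx2, a homeobox factor, was at 79, 98.1 and 53.4 for Tet3 +/+ and 71.7, 129.8 and 179 for Tet3 m/m. Elf5, an ETS factor of trophoblast stem cells, was near the lower end of what was measured, at 42.4, 65.4 and 11.9 for Tet3 +/+ against 18.4, 13.5 and 6.11 for Tet3 m/m, and the interval of its log2 difference was wide, -2.84 to 0.03.

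None of the 4 keratins passed the test in day 3 Tet3 m/m. Krt7 was at 6999.7, 5693 and 6992 for Tet3 +/+ and 5574, 5214 and 2032 for Tet3 m/m. Every Tet3 m/m value was below every Tet3 +/+ value, with the third Tet3 m/m sample lowest, and the log2 difference of -0.75 ± 0.31 (SE) had a limma adjusted p of 0.139. Krt8 was at 42251, 27488 and 40820.3 for Tet3 +/+ against 51629, 45389.7 and 23439 for Tet3 m/m. The first 2 Tet3 m/m samples were the highest of the 6 and the third was the lowest, and Krt18 (17772) and Krt19 (5025) were also lowest in that sample. Over the 10 genes the median log2 difference was -0.23, against 0.00 over all genes tested, and 3 genes did not overlap between the groups, all lower in Tet3 m/m (Gata2, Tfap2c and Krt7), where 18.3% of all genes were lower without overlap.

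In day 3 Tet3 -/- the pattern was another, with the 4 keratins above every Tet3 +/+ sample but no member called, and 0.642% of all genes were called in that comparison. Krt8 was at 75249 and 63802 in the 2 Tet3 -/- samples against 42251, 27488 and 40820.3 for Tet3 +/+, a log2 difference of 0.94 ± 0.30 (SE) with a limma adjusted p of 0.12. Krt18 was at 54997 and 48557 against 34157, 24394 and 31368, a log2 difference of 0.80 ± 0.28 (SE) with a limma adjusted p of 0.147. Both were called, with the same direction, by DESeq2, with only the compared groups in the fit, or without the third Tet3 m/m sample, with adjusted p from 0.0162 to 0.0252 for Krt8 and 0.0213 to 0.0347 for Krt18, while over all alternatives the values reached 0.365 and 0.402. Krt19 was at 15682 and 13641 and Krt7 at 9509 and 7887, both higher than in all Tet3 +/+ samples. Of all genes tested, 20.8% were higher in Tet3 -/- without overlap, so 4 of 10 members is to be read against that share. At an unadjusted p under 0.05, limma gave 2 members, and edgeR called 0.

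The factors in day 3 Tet3 -/- stayed within or near the Tet3 +/+ values. Tfap2c, at 1066 and 907, was below each Tet3 +/+ sample, with a log2 difference of -0.49 ± 0.23 (SE) and a limma adjusted p of 0.255. Gata2 at 1683 and 2301, Gata3 at 2125 and 1461, Hand1 at 208 and 323, Cdx2 at 63.6 and 43.3 and Elf5 at 25.5 and 44.4 each overlapped Tet3 +/+. The interval of the log2 difference was narrowest for Gata3, -0.37 to 0.34. The members' median was 0.22, against -0.01 over all genes tested. Compared directly, Tet3 -/- and Tet3 m/m gave no called member by limma, with 6 at an unadjusted p under 0.05, 0 called by edgeR and 4 by DESeq2, and 9.73% of all genes were called. Krt7 came nearest, with a log2 difference of 1.15 ± 0.34 (SE) and a limma adjusted p of 0.0527.

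Of the other cell types whose markers were followed at day 3, feeder fibroblast genes (Col1a1 and others, 7 of 7 listed) summed to 17030 to 27840 in Tet3 +/+, 10360 to 20490 in Tet3 m/m and 42380 to 47260 in Tet3 -/-. These sums were thus higher in the same 2 samples as the keratins, though 0 of the 7 genes were called in Tet3 -/-. Their part in the keratin values was not tested. Surface ectoderm genes summed to 6233 to 7292 in Tet3 +/+, 3875 to 4103 in Tet3 m/m and 4794 to 4953 in Tet3 -/-, lower in Tet3 m/m as Gata2 and Tfap2c were, and their part in those values was not tested. Neural progenitor genes, those of the labelled cell type, had 6 of 10 called lower in Tet3 m/m (median log2 difference -1.08). In Tet3 -/- 2 were called lower and 1 higher, with a median log2 difference of -1.06. Their sums were 18170 to 24980 in Tet3 +/+, 14350 to 19080 in Tet3 m/m and 24210 to 27620 in Tet3 -/-, where the sum does not follow the median. Visceral endoderm genes summed to 6304 to 7141 in Tet3 +/+ and 8603 to 12390 in Tet3 m/m, without overlap, and 3 of 10 were called higher. The part of these lists in the members' values was not tested either. In these bulk samples, fewer cells of a type and less RNA per cell cannot be told apart.

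**Figure D2:**
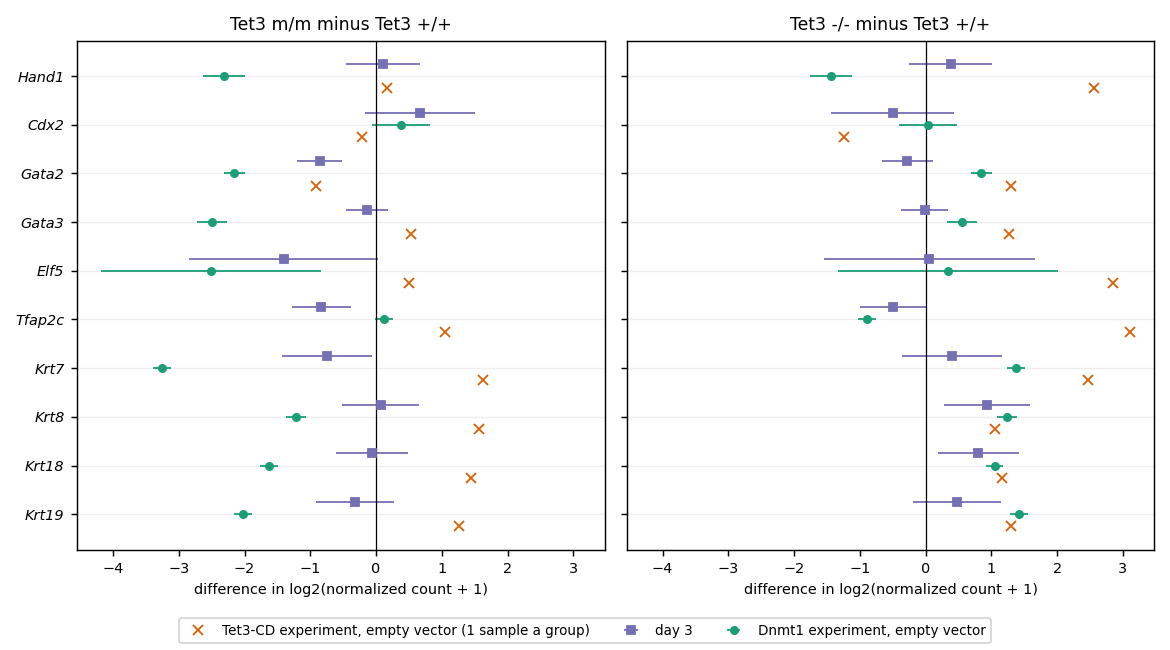
Log2 difference from Tet3 +/+ of each of the 10 genes in Tet3 m/m and Tet3 -/-, in the day 3, Dnmt1 (empty vector) and Tet3-CD (empty vector) experiments. Bars are 95% intervals and crosses mark the experiment with 1 sample per group. Krt7 in Tet3 m/m lies at -0.75 at day 3, -3.25 with the Dnmt1 series and 1.62 with Tet3-CD.

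With the empty vector of the Dnmt1 experiment the genotype differences were larger. In Tet3 m/m, 8 of the 10 members fell and none rose, where 21.2% of all genes were called in either direction and 10.9% were called lower. The members' median log2 difference was -2.09, against 0.01 over all genes tested. In Tet3 -/-, 5 rose (Gata2 and the 4 keratins) and 2 fell (Hand1 and Tfap2c), where 24.9% of all genes were called, 11% higher and 13.9% lower. The 2 comparisons share the same Tet3 +/+ samples.

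Gata2 was at 1804 and 1875 normalized counts for Tet3 +/+, 385 and 443 for Tet3 m/m and 3303 and 3324 for Tet3 -/-. The 3 genotypes did not overlap, and relative to Tet3 +/+ the gene was 4.45-fold lower in Tet3 m/m (log2 difference -2.15 ± 0.07, SE, limma adjusted p = 1.14e-15) and 1.8-fold higher in Tet3 -/- (0.85 ± 0.07, adjusted p = 4.92e-09). Gata3 had the same order, 1076 and 1142, then 167 and 231, then 1604 and 1647. It was 5.62-fold lower in Tet3 m/m (-2.49 ± 0.11, SE, limma adjusted p = 5.82e-14), while its increase in Tet3 -/- of 0.55 ± 0.11 (limma adjusted p = 0.000243) stayed under 1.5-fold.

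Hand1 was lower in both altered genotypes, at 735 and 686 for Tet3 +/+, 142 and 142 for Tet3 m/m and 322 and 211 for Tet3 -/-. The log2 differences from Tet3 +/+ were -2.32 ± 0.15 and -1.44 ± 0.15 (SE), with limma adjusted p of 4.79e-11 and 8.34e-08. Tfap2c had another order, at 2982 and 3182 for Tet3 +/+, 3356 and 3339 for Tet3 m/m and 1633 and 1684 for Tet3 -/-. It fell 1.86-fold in Tet3 -/- (-0.89 ± 0.07, SE, limma adjusted p = 2.59e-10), and in Tet3 m/m its interval was -0.01 to 0.26.

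Elf5 and Cdx2 were low in all 3 genotypes. Elf5 was at 15.8 and 18.6 for Tet3 +/+, 9.14 and 0 for Tet3 m/m and 22.7 and 21.2 for Tet3 -/-. It passed the test in Tet3 m/m (limma adjusted p = 0.0138), but 1 of the 2 Tet3 m/m samples had no read, so its fitted fold change is no bound. The call was lost with edgeR (adjusted p = 0.0713), with DESeq2 (0.0693), without a Tet3 +/+ sample (limma, 0.0721) and without the Tet3 m/m sample listed at 0 (limma, 0.384). Cdx2 was at 105 and 88.1 for Tet3 +/+, 137 and 115 for Tet3 m/m and 94.2 and 103 for Tet3 -/-, and neither difference passed the test.

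All 4 keratins fell in Tet3 m/m and rose in Tet3 -/- with the empty vector. Krt7 covered the widest range, at 3410.1 and 3641 for Tet3 +/+, 374 and 365 for Tet3 m/m and 9259.6 and 9026 for Tet3 -/-. The 3 genotypes were apart, and the log2 differences from Tet3 +/+ were -3.25 ± 0.07 and 1.38 ± 0.07 (SE), 9.52-fold lower and 2.59-fold higher, with limma adjusted p of 2.28e-19 and 3.96e-13. Krt8 was at 24125 and 24081 for Tet3 +/+, at 9722 and 11044 for Tet3 m/m and at 58608 and 55187 for Tet3 -/-, with log2 differences of -1.22 ± 0.07 and 1.24 ± 0.07 (limma adjusted p 5.35e-12 and 5.74e-12).

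Among the type I chains, Krt18 was at 18668 and 18218 for Tet3 +/+, 5546 and 6447 for Tet3 m/m and 38289.8 and 38099.6 for Tet3 -/-. Its log2 differences were -1.62 ± 0.06 and 1.05 ± 0.06 (SE), with limma adjusted p of 8.71e-15 and 1.85e-11. Krt19 was at 5328 and 5684 for Tet3 +/+, at 1258 and 1457 for Tet3 m/m and at 14734 and 14827 for Tet3 -/-, with log2 differences of -2.02 ± 0.07 and 1.43 ± 0.07 (limma adjusted p 3.71e-16 and 1.98e-13). For each keratin the order Tet3 m/m below Tet3 +/+ below Tet3 -/- held for all samples. The keratins took 0.0413% and 0.0476% of reads in the 2 Tet3 m/m samples, 0.127% in each Tet3 +/+ sample, and 0.296% and 0.287% in Tet3 -/-.

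Between the altered genotypes themselves, 8 members were higher and 1 (Tfap2c) was lower in Tet3 -/- than in Tet3 m/m, where 39.6% of all genes were called, 18.9% higher and 20.6% lower. Elf5 is among the 8, with a log2 difference of 2.85 that includes the Tet3 m/m sample without a read. Leaving that sample out gave 1.18, from 1 remaining Tet3 m/m sample. The members' median log2 difference was 2.76, against -0.01 over all genes tested. Krt7 differed most, 24.7-fold (log2 difference 4.63 ± 0.07, SE, limma adjusted p = 2.2e-22).

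These samples also differed in markers of other cell types. Pluripotency genes (8 of 8 listed) summed to 62860 to 64090 in Tet3 m/m, 21470 to 21640 in Tet3 +/+ and 4244 to 4395 in Tet3 -/-. In this experiment that is the reverse of the keratins. Visceral endoderm genes (11 of 11 listed) summed to 78780 to 87930, 21080 to 23070 and 7228 to 7786, in the same order of genotypes. Parietal endoderm genes (10 of 10 listed) had that order too, at 698700 to 777200, 317500 to 326900 and 152800 to 155100, with 8 called higher in Tet3 m/m. Surface ectoderm genes (7 of 8 listed), to which Gata2, Gata3 and Tfap2c are related, summed to 1853 to 1911 in Tet3 m/m, 5239 to 5264 in Tet3 +/+ and 6816 to 6914 in Tet3 -/-, with 5 of 7 called lower in Tet3 m/m. Of the neural progenitor genes, 5 of 10 were called lower and 2 higher in Tet3 m/m. Sums of feeder fibroblast genes (7 of 7 listed) had the order of the keratins. They were 2884 to 3145 in Tet3 m/m, 17670 to 19420 in Tet3 +/+ and 36290 in both Tet3 -/- samples. Of the 7, 5 were called lower and 1 higher in Tet3 m/m, and 3 higher and 1 lower in Tet3 -/-. The shares of all genes called are those given above for these comparisons. The part of these lists in the members' values was not tested.

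Krt7, Krt8 and Krt18 lie together on chromosome 15. Along the tested genes Krt8 and Krt18 are next to each other, and 5 tested genes lie between Krt7 and Krt8. RefSeq promoters (250 bases before to 50 after the start, GRCm38.p6) were matched for 7 of the 10 members, with none for Hand1, Tfap2c and Krt19. Those of the clustered keratins are shown because they are among the members that moved together, and that of Gata3 because it is the factor gene whose promoter holds the most matches. Capitals mark matches, on either strand, to 3 motifs. The first is the core bound by AP-2 factors, spelled GCCNNNGGC. The next is the core bound by GATA factors, which was searched both as AGATAA and in its common variant form, spelled out with T at the front, TGATAA. The last is the TATA box, whose letters were taken as TATAAA. Krt7 is given at chr15:101412153-101412452 on the plus strand, Krt8 at chr15:102004293-102004592 on the minus strand, Krt18 at chr15:102027966-102028265 on the plus strand and Gata3 at chr2:9878551-9878850 on the minus strand.
Krt7: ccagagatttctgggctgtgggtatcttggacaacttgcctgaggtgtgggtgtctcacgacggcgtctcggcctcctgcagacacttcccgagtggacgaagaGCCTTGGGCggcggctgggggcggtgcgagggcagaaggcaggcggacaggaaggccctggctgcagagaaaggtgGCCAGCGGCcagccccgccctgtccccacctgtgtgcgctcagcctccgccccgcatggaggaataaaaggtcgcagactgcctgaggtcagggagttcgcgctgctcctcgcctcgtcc
Krt8: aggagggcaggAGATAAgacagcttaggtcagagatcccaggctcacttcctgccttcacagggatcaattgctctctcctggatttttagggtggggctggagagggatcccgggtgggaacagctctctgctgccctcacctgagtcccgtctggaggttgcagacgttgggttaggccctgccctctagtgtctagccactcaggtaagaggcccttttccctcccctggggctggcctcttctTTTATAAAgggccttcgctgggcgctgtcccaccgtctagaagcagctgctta
Krt18: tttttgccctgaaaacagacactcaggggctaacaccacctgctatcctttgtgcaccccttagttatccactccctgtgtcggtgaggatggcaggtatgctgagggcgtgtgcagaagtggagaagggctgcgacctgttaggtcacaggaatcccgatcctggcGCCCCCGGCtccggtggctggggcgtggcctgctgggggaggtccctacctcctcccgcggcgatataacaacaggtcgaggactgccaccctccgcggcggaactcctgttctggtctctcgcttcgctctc
Gata3: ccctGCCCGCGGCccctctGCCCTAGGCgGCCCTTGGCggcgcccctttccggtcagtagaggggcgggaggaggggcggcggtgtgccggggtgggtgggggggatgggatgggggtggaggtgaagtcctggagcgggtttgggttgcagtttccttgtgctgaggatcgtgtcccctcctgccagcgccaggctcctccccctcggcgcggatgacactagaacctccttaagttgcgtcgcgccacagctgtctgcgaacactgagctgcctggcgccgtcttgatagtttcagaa

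Krt7 held 2 AP-2 matches, Krt18 held 1 and Gata3 held 3. Krt8 held a GATA match and the TATA letters read on both strands, the pair overlapping. That pair runs from base -3 to base 5 and so lies across the annotated start itself. Of 32851 promoters of this length, 16.6% held the AP-2 letters, 18.6% the GATA letters and 13.6% the TATA box. Gata3 was picked for its matches, so its count is not to be read against these shares. Among the members not shown, Cdx2 and Gata2 also held AP-2 matches, and Elf5 held no match. A match describes letters in this window and not binding of a factor.

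The 2 chains of the first embryonic pair kept a narrow ratio while their level changed. Krt8 over Krt18 ran from 1.13 to 1.77 across all 26 samples, a 1.57-fold range, while Krt8 alone spanned 8.19-fold within the Dnmt1 experiment. The ratio was 1.29 and 1.32 in Tet3 +/+ with the empty vector and 1.75 and 1.71 in Tet3 m/m. Krt7 did not keep step with Krt8. With the empty vector it was 14.1% and 15.1% of Krt8 for Tet3 +/+, 3.84% and 3.3% for Tet3 m/m, and 15.8% and 16.4% for Tet3 -/-. With 2 samples a group, an exact permutation test cannot go below 0.333. At day 3 Krt7 was 16.6%, 20.7% and 17.1% of Krt8 in Tet3 +/+ and 10.8%, 11.5% and 8.67% in Tet3 m/m, means of 18.1% ± 2.24 and 10.3% ± 1.47 (SD, n = 3). These groups did not overlap, and the two-sided exact permutation p of 0.1 is the smallest that 3 against 3 allows.

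**Figure D3:**
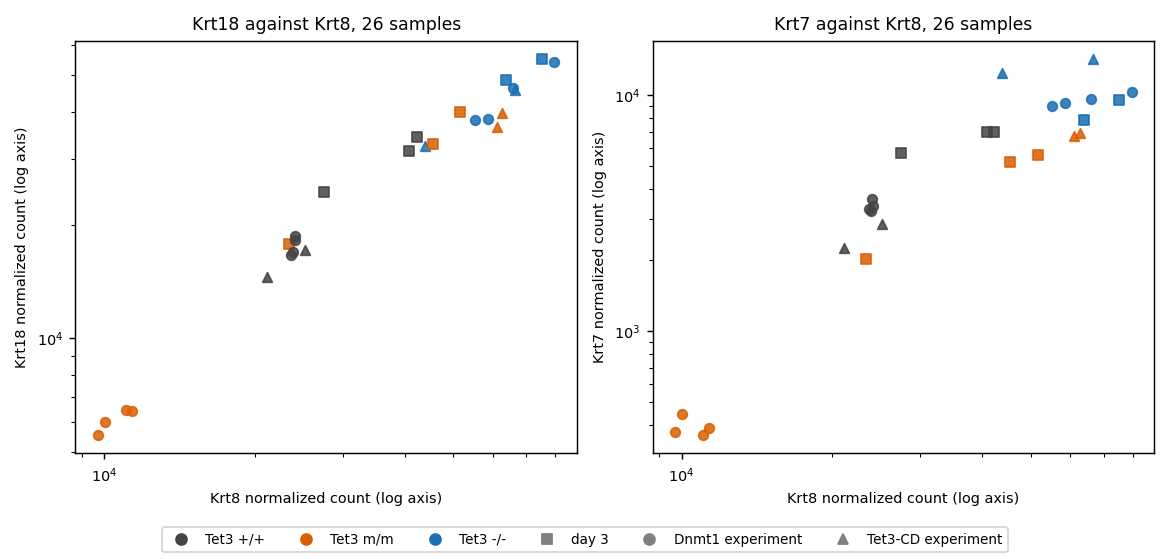
Krt18 against Krt8 and Krt7 against Krt8 (normalized counts, log axes) in 26 RNA-seq samples, with symbols by genotype and experiment. Krt18 follows Krt8 closely (ratio 1.13 to 1.77), while Krt7 drops to 3.3% of Krt8 in a Tet3 m/m sample of the Dnmt1 experiment and reaches 28.3% in a Tet3 -/- sample of the Tet3-CD experiment.

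The Dnmt1 vector raised 2 members in Tet3 m/m, Gata3 and Hand1, and no member was called in Tet3 +/+ or Tet3 -/-. In each of those genotypes 5 members had an unadjusted p under 0.05 by limma, and edgeR and DESeq2 each called 0. The share of all genes at that unadjusted p is not given here. The shares of all genes called were 1.17% in Tet3 +/+, 2.46% in Tet3 m/m (1.78% higher) and 3.53% in Tet3 -/-. Gata3 in Tet3 m/m went from 167 and 231 with the empty vector to 399 and 392 with Dnmt1, a log2 difference of 1.00 ± 0.11 (SE, limma adjusted p = 2.2e-06). In the same cells Hand1 went from 142 and 142 to 232 and 240.0, a log2 difference of 0.73 ± 0.15 (SE, limma adjusted p = 0.00311). For both genes the Dnmt1 samples were above the empty vector samples and still below every Tet3 +/+ sample. Feeder fibroblast genes in Tet3 m/m summed to 2884 to 3145 with the empty vector and 4564 to 4660 with Dnmt1, and 4 of 7 were called higher. So were 3 of 7 surface ectoderm genes, 4 of 11 early and extraembryonic mesoderm genes and 3 of 10 neural progenitor genes. The pluripotency, visceral endoderm and parietal endoderm lists had 0 called. The part of these lists in the values of Gata3 and Hand1 was not tested. Gata3 overlaps the listed genes 4930412O13Rik and 9230102O04Rik, and since the strand setting of the counting is not given in the sources used here, their reads may not be separated.

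The response of Gata3 differed between genotypes. It was 0.30 ± 0.11 for Tet3 +/+ (values 1076 and 1142, then 1387 and 1346), so that the response in Tet3 m/m exceeded it by 0.70 ± 0.16 (SE, limma interaction, adjusted p = 0.0214), where 0.604% of all genes were called. That call was lost in 7 of the fits that left out a sample (limma adjusted p from 0.0592 to 0.128). The response of Hand1 did not pass this test (0.52 ± 0.22, limma adjusted p = 0.354).

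Gata2 and the keratins changed by less than 1.5-fold with the vector. Gata2 went from 1804 and 1875 to 2210.2 and 2185 for Tet3 +/+ and from 3303 and 3324 to 2868 and 2643 for Tet3 -/-, higher with Dnmt1 in the former and lower in the latter. The difference between these responses was -0.52 ± 0.11 (SE, limma interaction, adjusted p = 0.00285), within 1.5-fold. No member was called for this difference between Tet3 -/- and Tet3 +/+, where 3.99% of all genes were, and 6 had an unadjusted p under 0.05 by limma, with 0 called by edgeR and by DESeq2. Krt18 went from 18668 and 18218 to 16607 and 16923 for Tet3 +/+ and from 38289.8 and 38099.6 to 46082 and 54024 for Tet3 -/-, a difference in response of 0.52 ± 0.09 (SE, limma adjusted p = 0.000766). Krt8, which overlaps the listed gene Gm36026, gave 0.37 ± 0.10 (limma adjusted p = 0.0217). Pluripotency genes in Tet3 -/- summed to 4244 to 4395 with the empty vector and 6281 to 6516 with Dnmt1, and their part in these values was not tested. In Tet3 m/m, Krt7 was at 388 and 447 with Dnmt1 and 374 and 365 without, and the interval of its log2 difference was 0.04 to 0.31. With the Dnmt1 vector, 9 members were lower in Tet3 m/m than in Tet3 +/+ without overlap, where 35.2% of all genes were, the exception being Cdx2.

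**Figure D4:**
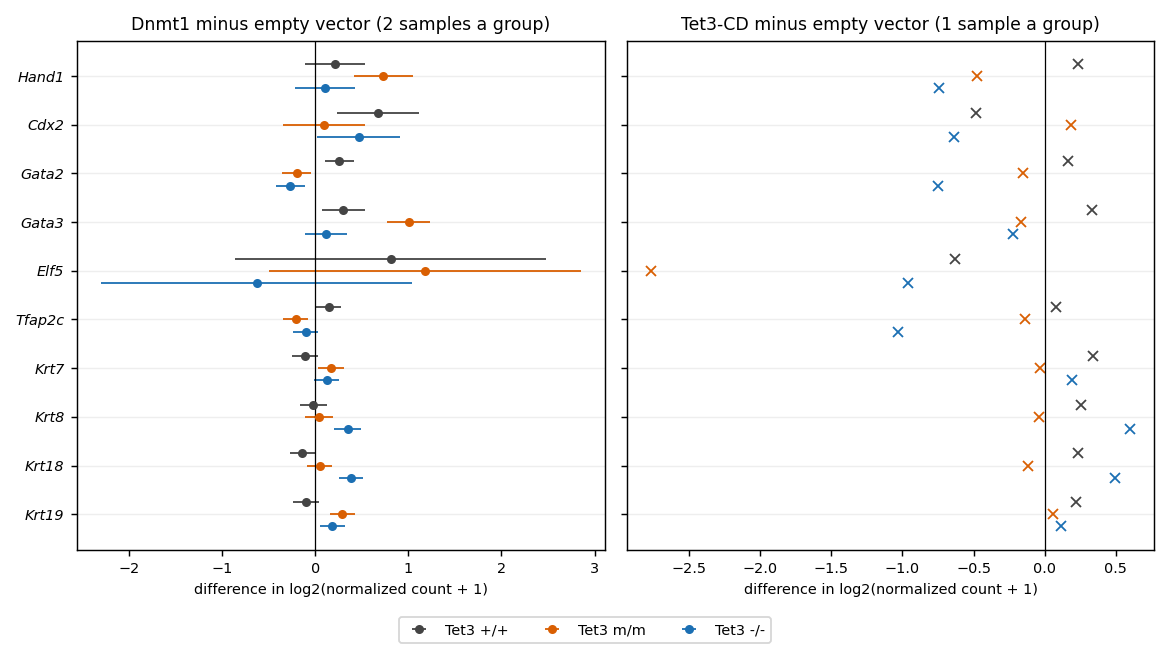
Log2 response of each of the 10 genes to the Dnmt1 vector (with 95% intervals) and to the Tet3-CD vector (1 sample per group, no interval) relative to the empty vector, by genotype. Gata3 in Tet3 m/m responds by 1.00 to Dnmt1, and Tfap2c in Tet3 -/- by -1.03 to Tet3-CD.

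In the Tet3-CD experiment, with 1 sample per group, the genotypes stood in another order. Its collection time, which the labels and the methods give differently, cannot be told apart from the other differences between the experiments. Values past 1.5-fold are given with no test. With the empty vector, 5 members were higher in Tet3 m/m than in Tet3 +/+ and 1 was lower, where 36.3% of all genes were past that fold, 20.2% higher and 16.1% lower. In Tet3 -/- 9 were higher and 1 was lower, where 27.1% of all genes were past it, 15.4% higher and 11.7% lower. The 2 comparisons share 1 Tet3 +/+ sample.

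With the empty vector Krt7 was at 2248 for Tet3 +/+, 6916 for Tet3 m/m and 12397 for Tet3 -/-. Krt8 was at 21154 for Tet3 +/+, at 62635 for Tet3 m/m and at 43805 for Tet3 -/-, so Tet3 m/m held the highest Krt8 of the 3, whereas in the Dnmt1 experiment it held the lowest. Gata2 was at 2707 for Tet3 +/+, at 1440.2 for Tet3 m/m and at 6670.5 for Tet3 -/-, lowest in Tet3 m/m as in the 2 other experiments. Tfap2c was at 605 for Tet3 +/+, at 1248 for Tet3 m/m and at 5242 for Tet3 -/-, a log2 ratio of 3.11 for Tet3 -/- over Tet3 +/+. Hand1 was at 339.7 for Tet3 +/+, at 379.8 for Tet3 m/m and at 2008 for Tet3 -/-, high in Tet3 -/- alone. Elf5 reached 98.2 for Tet3 -/-, from 12.8 for Tet3 +/+, and Cdx2 was lower there at 112 against 267. The Tet3 +/+ sample of this experiment also had the highest sums of endoderm markers, 61890 for visceral endoderm against 14720 in Tet3 m/m and 15590 in Tet3 -/-, and 1233000 for parietal endoderm against 285100 and 359000. Their part in these values was not tested.

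With the Tet3-CD vector in Tet3 -/-, 5 factor values were lower by more than 1.5-fold and 1 keratin value was higher, where 21.5% of all genes were past that fold, 11.6% lower and 9.89% higher. Hand1 was at 2008 under the empty vector and 1197 under Tet3-CD, Gata2 at 6670.5 and 3973, and Tfap2c at 5242 and 2562. Elf5, at 98.2 and 50.1, and Cdx2, at 112 and 71.8, were lower too. Gata3, at 2331 and 1996, stayed within 1.5-fold, and Krt8 was higher, at 43805 and 66487. Markers of other cell types moved in the same pair of samples. Of 11 visceral endoderm genes 9 were lower by more than 1.5-fold, with sums of 15590 under the empty vector and 8329 under Tet3-CD, as were 6 of 8 pluripotency genes (9886 and 6163), 5 of 10 neural progenitor genes (whose sum was higher, 9575 and 15300) and 4 of 10 parietal endoderm genes (359000 and 238700), and their part in the factor values was not tested. Tet3 counts in these 2 samples were 2069.8 and 2759, a smaller difference than in Tet3 m/m, where they were 1849.9 and 5232. In Tet3 +/+ and Tet3 m/m the only member past 1.5-fold was Elf5, among 13.4% and 10.1% of all genes. It was at 12.8 and 7.9 for Tet3 +/+, and in Tet3 m/m at 18.6 and 1.88, the last from 2 reads (ratio 0.101, 95% counting interval 0.0114 to 0.415, counting error only).

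Across the 26 samples, with the mean of each experiment removed, the keratins varied together. Pearson's r of log2(normalized count + 1) was 0.991 between Krt8 and Krt18 and 0.976 between Krt7 and Krt19, and Gata3 had r of 0.926 with Krt7. Tfap2c had r of -0.055 with Krt7 and -0.005 with Gata2. Among 13299 genes, the most alike were Krt18 for Krt8, Hspb8 for Krt19 (0.99), Scube3 for Krt7 (0.977), Palm for Gata2 (0.97), Peg10 for Gata3 (0.967) and Plcg2 for Tfap2c (0.91). For Hand1 the most alike was Phlda2 (0.814), for Elf5 Gramd4 (0.792) and for Cdx2 Ube2cbp (0.721). These correlations describe samples that share libraries, genotype and depth, and have no test. The genes nearest each member on its chromosome (50 tested neighbours) had median log2 differences from -0.21 to 0.17 over the 160 combinations of member and comparison. The processed pseudogene row Krt8-ps held 0.964 to 6.27 normalized counts per 1000 of Krt8.

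Other genes of the trophoblast were followed from a list of 22, also chosen with earlier results of these data known. Of these, Prl3d1, Prl2c2 and Synb, genes of placental hormones and of cell fusion, were not listed in any of the 3 experiments and have no value here. Tpbpa was listed at day 3 only. At day 3 in Tet3 m/m, 9 of the 19 tested were called lower and 1 higher, where 5.19% of all genes were called lower and 5.06% higher, with a median log2 difference of -0.77 against 0.00 over all genes. Tpbpa, a spongiotrophoblast gene, was at 34.7, 35.5 and 41.5 normalized counts for Tet3 +/+ and had no read in any Tet3 m/m sample, at least 12.9-fold lower against a floor of 3 reads per library. Syna (log2 difference -3.94), which encodes a placental fusion protein, Plac1 (-2.53) and Tfap2a (-1.92) were also lower, while Eomes, a T-box factor of trophoblast stem cells and of mesendoderm, was higher (1.79). In day 3 Tet3 -/- none of the 19 was called by limma, and 4 had an unadjusted p under 0.05.

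With the empty vector of the Dnmt1 experiment, 11 of 18 were called lower and 3 higher in Tet3 m/m, and 3 in each direction in Tet3 -/-. Of all genes tested, 10.9% were called lower and 10.3% higher in Tet3 m/m, and 13.9% lower and 11% higher in Tet3 -/-, so the trophoblast counts in Tet3 -/- lie near those shares. In Tet3 m/m, Cdh3 (-2.49), which encodes P-cadherin, Gcm1 (-2.45), a labyrinth factor, and Wnt7b (-2.18) fell most, and Eomes (1.95), Klf5 (1.69) and Esrrb (1.59) were higher. Esrrb is also on the pluripotency list. In the Tet3-CD experiment 15 of 18 were past 1.5-fold higher in Tet3 -/- with the empty vector and none lower, where 15.4% of all genes were past it higher.

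The simple epithelium list of junction and adhesion genes moved in part with the keratins. In Tet3 m/m with the empty vector of the Dnmt1 experiment, 7 of 14 were called lower and 1 higher, with Cldn4 at -1.49 and Grhl2 at -1.26, and Ocln at 0.61. In Tet3 -/- 6 were called higher and none lower, with Perp at 1.80 and Dsp, which encodes desmoplakin, at 1.28. The medians were -0.52 and 0.49, against 0.01 and 0.00 over all genes tested, and the shares of all genes called are those given for the trophoblast list. Of 11 other keratins tested in the same experiment, 2 were called higher and 2 lower in Tet3 m/m, and 4 in each direction in Tet3 -/-. Krt15 and Krt20 moved like the members (-1.57 and -0.89 in Tet3 m/m, 2.30 and 1.32 in Tet3 -/-), while Krt42 was higher in Tet3 m/m (1.66) and lower in Tet3 -/- (-3.56). The medians over these 11 were -0.20 in Tet3 m/m and 0.46 in Tet3 -/-. All 11 summed to 510.0 to 637 normalized counts for Tet3 m/m, 646 to 704 in Tet3 +/+ and 1317 to 1505 in Tet3 -/-, the same order of genotypes as the member keratins, beside 21100 to 23580 for the 10 members in Tet3 m/m, 58250 to 58620 in Tet3 +/+ and 124100 to 127900 in Tet3 -/-.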

How the data were processed

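RNA-seq of 26 samples was analysed. The authors trimmed reads with Trim Galore 0.6.7, aligned them with STAR 2.7.9a, counted them per gene with featureCounts, and deposited the signal as counts divided by DESeq2 size factors, per experiment. The values of 1 read were recovered from the deposited steps, and 100% of values came out whole within 0.01. Samples of a group differed by more than sampling noise (chi-square per gene of 3.97 to 87.6). Strand setting was not given in the sources used here. Each table holds 17705 to 18091 genes, and tables were normalized separately. limma 3.58.1 (R 4.3.3) was fitted on log2(value + 1) with a trend, over genes with a mean of at least 10, with all groups of an experiment in 1 fit and Benjamini-Hochberg adjustment over all genes. edgeR 4.0.16 and DESeq2 1.42.0 on the recovered reads, other pseudocounts (0.1 and 5), other filters, fits of the compared groups only, and leaving out each sample were tried. The scripts were tested on simulated data. All 10 members are named, and from other lists at most the called genes with the largest change. The members and lists were chosen with earlier results of these data known. Likeness used genes with a mean of at least 50 in every table. Exon lengths and gene order came from a GRCm38 annotation, while the methods name mm39 for RNA-seq, so no gene coordinates from the files are given. Promoters came from RefSeq (GRCm38.p6). Methylation, CUT&Tag and hmeDIP files were not used here. Counts of reads without molecular identifiers carry counting error only in their intervals.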

Additional observations from a re-analysis of the deposited data

Results flagged for a closer look

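The response to the Dnmt1 vector differed between genotypes for 5 genes by limma's interaction test (adjusted p under 0.05), though only Gata3 in Tet3 m/m passed 1.5-fold as well. With 1.5-fold required too, 0.604% of all genes were called in Tet3 m/m and 3.99% in Tet3 -/-. The share of all genes at an adjusted p under 0.05 alone is not given here. Relative to Tet3 +/+, the response in Tet3 m/m differed by 0.70 on the log2 scale for Gata3 (limma adjusted p = 0.0214), by -0.46 for Gata2 (0.0305) and by 0.39 for Krt19 (0.0367). In Tet3 -/- it differed by -0.52 for Gata2 (limma adjusted p = 0.00285), by 0.37 for Krt8 (0.0217) and by 0.52 for Krt18 (0.000766).

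Genotype differences of opposite direction in 2 experiments, with the groups apart in each, were seen for 9 genes, all but Gata2. No minimum size was set, and with 1 sample a group any unequal values are apart. With the empty vector of the Dnmt1 experiment, 36.3% of all genes were higher without overlap in Tet3 m/m and 36.1% lower. The share of all genes with opposite directions is not given here, so this count is not read as an excess. The difference between experiments was not tested, the tables were normalized separately, and the Tet3-CD experiment has 1 sample a group and an uncertain collection time. In Tet3 m/m against Tet3 +/+, Tfap2c was at -0.83 on the log2 scale at day 3, 0.12 with the empty vector of the Dnmt1 series and 1.04 with Tet3-CD, and Krt7 was at -0.75 at day 3 and 1.62 with Tet3-CD. Between the Dnmt1 and the Tet3-CD experiments, both with the empty vector, Krt7 was at -3.25 against 1.62, Krt8 at -1.22 against 1.57, Krt18 at -1.62 against 1.44 and Krt19 at -2.02 against 1.26. In the same pair of experiments the factors Hand1, at -2.32 against 0.16, Gata3, at -2.49 against 0.53, Elf5, at -2.51 (1 sample without a read, so no bound) against 0.51, and Cdx2, at 0.38 against -0.21, were within 1.5-fold in the Tet3-CD experiment. In Tet3 -/- against Tet3 +/+, Hand1 was at -1.44 with the Dnmt1 series and 2.56 with Tet3-CD, and Tfap2c at -0.49 at day 3, -0.89 with the Dnmt1 series and 3.11 with Tet3-CD.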

How the results depend on the processing

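No called value of a member changed sign under an alternative, and 42 values not called in the first place did. For Tet3 -/- against Tet3 +/+ at day 3, where no member was called, DESeq2 and a fit of only the compared groups each called 2. For Tet3 -/- against Tet3 m/m at day 3, a pseudocount of 5 called 1 and DESeq2 called 4, from 0. Without the fold threshold, the Dnmt1 vector gave 1 member for Tet3 +/+, 4 for Tet3 m/m and 3 for Tet3 -/-, and 3 differed in response in each of Tet3 m/m and Tet3 -/-. The shares of all genes without that threshold are not given here. With a pseudocount of 5, Tet3-CD in Tet3 +/+ gave 0 members past 1.5-fold, from 1. The causes were not tested, except that dropping a threshold calls more by construction. Leaving out each sample gave 1 to 2 members for Tet3 m/m, 0 to 2 for Tet3 -/-, and 0 to 5 between them at day 3 (5 without the first Tet3 m/m clone). For the empty vector samples of the Dnmt1 experiment it gave 7 to 8 in Tet3 m/m, 7 to 8 in Tet3 -/- and 8 to 9 between them. For the Dnmt1 vector it gave 0 with Tet3 +/+ cells, 2 to 3 with Tet3 m/m cells and 0 with Tet3 -/- cells, and for the differences in response 0 to 1 in each. Where 1 sample remained in a group, it is assumed to vary like the others. Hand1 in Tet3 -/- against Tet3 m/m fell under 1.5-fold without the first Tet3 -/- sample (0.57). Deviations of samples with the same replicate number had correlations of -0.229 to 0.163 at day 3 and -0.1 to 0.04 in the Dnmt1 experiment. For other numbers they were -0.227 to 0.229 and -0.04 to 0.1. With 2 samples in a group the deviations mirror each other, so this check cannot decide whether the numbers pair the samples. The replicate block gave 2, 0 and 0 members at day 3, 9 between Tet3 -/- and Tet3 m/m with the empty vector, and 2 and 0 for the Dnmt1 vector in Tet3 m/m and Tet3 -/-, and changed no count of calls. It could not be fitted for comparisons with the empty vector Tet3 +/+ samples, whose columns carry no number. Counting error limits Elf5, with at most 98 reads a sample.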
